A study of Homo sapiens with 6 samples.

Results

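Polycomb repressive complex 2 (PRC2) was described by the transcripts of 10 genes, taken as the rows of the deposited table whose gene symbol is EZH2, EZH1, EED, SUZ12, RBBP4, RBBP7, JARID2, AEBP2, MTF2 or PHF19. All 10 were among the 18625 genes listed and among the 16887 genes tested. The transcripts were measured by RNA-seq in NB4 cells, an acute promyelocytic leukemia line that carries the PML-RARA fusion, after 3 days in 10 μM Tan I or in the solvent DMSO, and each group had 3 libraries. Tan I (tanshinone I) is a lipid-soluble diterpene of Salvia miltiorrhiza, and the study examined it as an inhibitor of the enzymatic activity of EZH2. The comparison therefore asks whether the transcripts of the complex itself differed between treated and control cells. For EZH2 the study reported that Tan I left its RNA and protein levels unaffected, in a supplementary figure not seen here. All libraries came from a single cell line, and the labels do not say whether they were separate cultures, so the p-values cover the spread between these libraries only. In bulk RNA, fewer cells expressing a gene and less RNA per cell cannot be told apart.

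PRC2 places methyl groups on lysine 27 of histone H3 (H3K27), and the trimethyl form marks silenced genes. EZH2 or its paralog EZH1 is the catalytic subunit, EED binds trimethylated H3K27 and stimulates the enzyme, SUZ12 is the scaffold, and RBBP4 or RBBP7 binds histones. MTF2 and PHF19 are Polycomb-like accessory proteins that help the core bind chromatin, while JARID2 and AEBP2 belong to an alternative form of the complex. In blood cells EZH2 is best known as a gene of dividing progenitors, with both oncogenic and tumor suppressive roles.

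The deposited values are read counts divided by a size factor for each library, here called normalized counts. The libraries held 25356503 to 31679138 reads on the listed genes in DMSO and 21502760 to 24298627 in Tan I, and no PRC2 gene had fewer than 965 reads in any library. The main differences between libraries did not follow the treatment. Over the genes tested, principal component 1 (PC1) held 70.8% of the variance, and DMSO replicate 2 and Tan I replicate 3 had its highest scores, at 41.1 and 71.6, while the other 4 libraries lay between -48.0 and 8.65. Transcript length moved with this order. The longest of 3 equal classes of transcripts had a median deviation from their own mean of -0.06 (log2) in DMSO replicate 2 and -0.16 in Tan I replicate 3, against 0.11 in replicate 1 of either group. Of the promyelocyte markers, MPO (33279 to 64107 normalized counts), PRTN3, AZU1, CTSG and CD33 were all present, and ELANE was not analysed here. MPO and CTSG were lower in Tan I without adjustment (log2 fold changes of -0.78 and -0.69, limma adjusted p = 0.999 for both). The unadjusted p of MPO was 0.000988 in limma, 0.000617 in edgeR and 5.8e-13 in DESeq2. For CTSG the unadjusted p was 0.0262 in limma, 0.0254 in edgeR and 0.0112 in DESeq2. PC1 was computed from the same values, so a fit that takes its score as known may give p-values that are too small. With the PC1 score as a covariate, MPO, CTSG, PRTN3 and AZU1 were lower after adjustment, at -0.80, -0.84, -0.46 and -0.36 (limma, adjusted p = 5.5e-05, 3.2e-05, 0.0416 and 0.0246), and CD33 was not called. The fit with PC1 called 1.15% of all genes after adjustment. The part of these differences in the values of PRC2 genes was not tested. Among markers of other blood lineages, CD3E had at most 20.0 normalized counts, CD3D had 245 to 515, and MS4A1 and KLF1 were not analysed here.

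None of the 10 PRC2 genes passed the test for a difference between Tan I and DMSO in limma, a linear model fitted across all genes on log2(normalized count + 1). The study's threshold (unadjusted p up to 0.05, log2 fold change of 0.25 or more in size) called 0 of 10, where 2.42% of all genes tested were called (408 of 16887). By the p alone, 0 of 10 passed against 2.43% of all genes. The same count was 0 with edgeR and 0 with DESeq2 on the recovered reads. The unadjusted limma p-values ran from 0.138 for EED to 0.991 for EZH1, and all 10 adjusted p-values were 0.999. With adjustment, limma called 0 genes over the whole table, and 410 had an unadjusted p of at most 0.05, against 16 adjusted calls by DESeq2 and 0 by edgeR. The 95% confidence intervals of the fold change lay within 0.701 and 1.42 for all 10 genes, so a change of 1.5-fold in either direction lay outside each interval of this fit. Over the alternatives the intervals of 5 genes (EZH1, EED, RBBP4, JARID2 and MTF2) passed 1.5-fold in at least 1 fit, reaching 0.606 for JARID2 and 1.58 for MTF2. The difference between the group means was smaller than the larger of the 2 group SDs for 8 of the 10, with EED and PHF19 as the exceptions.

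**Figure D1:**
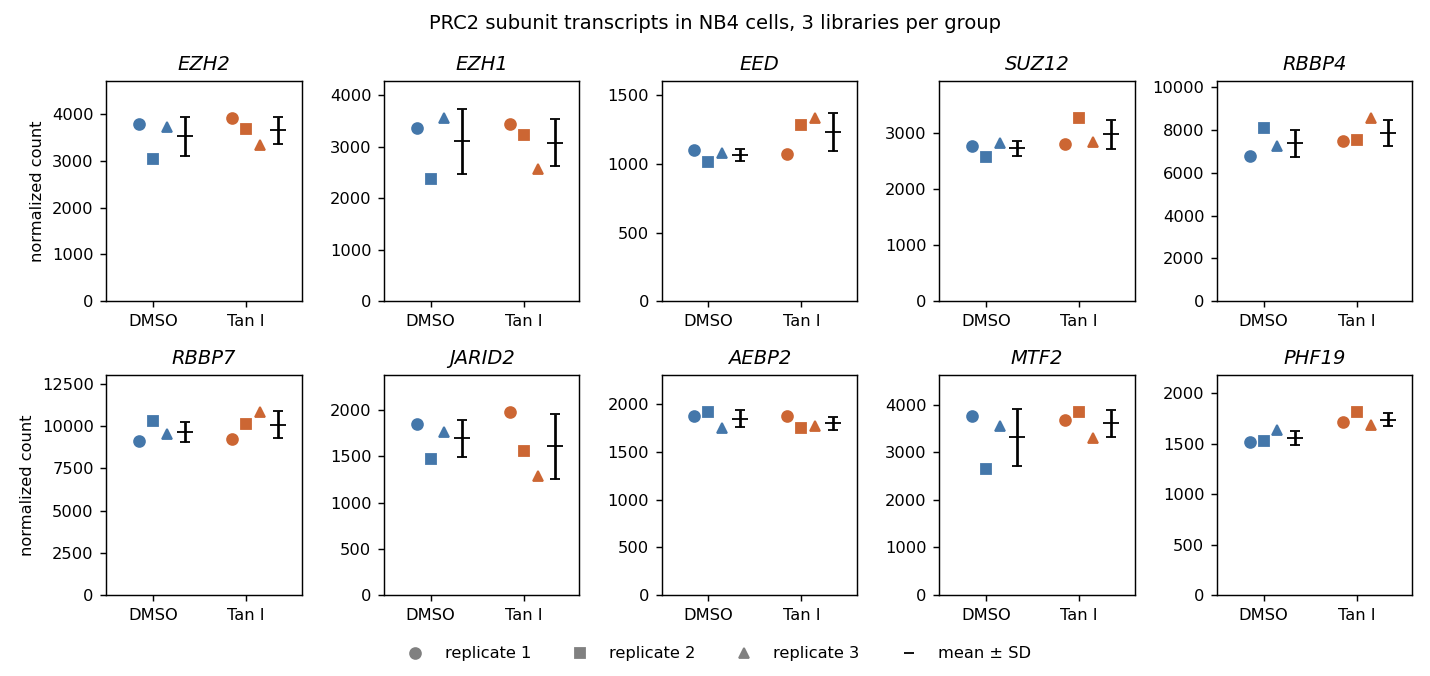
Normalized counts of the 10 PRC2 genes in each of the 6 libraries, with a separate vertical axis from 0 for each gene. Symbols mark replicates and black bars give the mean ± SD of 3 libraries. The groups overlap for all genes but PHF19, and DMSO replicate 2 is the lowest library for 5 of the 10.

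EZH2 (ENSG00000106462, chr7:148807257-148884321, - strand of GRCh38) encodes the main H3K27 methyltransferase. It had 3795, 3041 and 3729 normalized counts in DMSO replicates 1, 2 and 3 and 3920, 3690 and 3349 in Tan I replicates 1, 2 and 3. DMSO replicate 2 was the lowest and Tan I replicate 1 the highest. Among the remaining libraries, Tan I replicates 2 and 3 both lay below DMSO replicates 1 and 3. The group means were 3522 ± 418 and 3653 ± 288 (SD, n = 3 each), and limma put the log2 fold change at 0.06, with a 95% interval of -0.25 to 0.36 (adjusted p = 0.999). In linear terms this is 1.04-fold, with an interval of 0.840 to 1.29. Without DMSO replicate 2 the log2 fold change turned to -0.046. Equal totals for all libraries put it at -0.0027, but this scaling moved the median of all genes to -0.06. Relative to the median of all genes, EZH2 was at 0.058 with equal totals and in the fit on the deposited values.

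EZH1 (ENSG00000108799, chr17:42700275-42745049, - strand) encodes the second catalytic subunit, a weaker methyltransferase that is known to persist in non-dividing cells. Its values were 3373, 2386 and 3566 in DMSO and 3440, 3229 and 2571 in Tan I. The lowest value of each group came from the library with the highest PC1 score in that group. The log2 fold change was -0.0023 with an interval of -0.44 to 0.44, the widest of the 10. Its sign was positive with PC1 as a covariate (0.10) and without DMSO replicate 1, DMSO replicate 3 or Tan I replicate 3 (0.07, 0.11 and 0.12).

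Within a library, EZH2 exceeded EZH1 in normalized counts in all 6 libraries, and the log2 ratio was 0.17, 0.35 and 0.06 in DMSO and 0.19, 0.19 and 0.38 in Tan I. The library with the highest ratio in each group was again DMSO replicate 2 and Tan I replicate 3. The means differed by 0.06 (exact two-sided permutation test, p = 0.5, where the smallest p that 3 against 3 allows is 0.1). The difference was -0.0060 without DMSO replicate 3 and -0.0043 without Tan I replicate 3.

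The bases upstream of the annotated starts of this catalytic pair are shown because the pair shares an enzymatic role while the count of CCAAT letters differs. They were taken from RefSeq windows on GRCh38.p14 that end at the base before the start RefSeq gives (chr7:148884292-148884541 for EZH2 and chr17:42745041-42745290 for EZH1, both on the - strand and printed 5′ to 3′). The GENCODE genes begin further upstream, so the last 30 bases of the EZH2 window and the last 9 of the EZH1 window lie inside the genes as positioned above. Capitals mark the letters CCAAT on either strand, the core of the CCAAT box that the factor NF-Y binds in many promoters of cell cycle genes.
EZH2: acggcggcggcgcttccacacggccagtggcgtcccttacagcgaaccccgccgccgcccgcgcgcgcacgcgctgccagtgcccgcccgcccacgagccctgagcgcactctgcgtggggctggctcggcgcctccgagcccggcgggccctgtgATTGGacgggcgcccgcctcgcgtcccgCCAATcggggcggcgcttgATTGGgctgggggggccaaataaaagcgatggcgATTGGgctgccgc
EZH1: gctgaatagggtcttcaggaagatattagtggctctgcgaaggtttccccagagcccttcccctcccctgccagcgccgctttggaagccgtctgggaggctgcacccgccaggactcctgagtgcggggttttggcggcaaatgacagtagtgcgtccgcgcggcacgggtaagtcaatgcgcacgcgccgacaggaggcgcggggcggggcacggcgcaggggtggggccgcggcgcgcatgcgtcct
The EZH2 window held 4 matches, as many or more of which occurred in 0.832% of the 35116 windows of all genes, and the EZH1 window held 0. The pair was shown with these counts known, so the share is a description and no test. Of the 4 matches, 1 lies in the stretch inside the GENCODE gene. RefSeq lists 15 such windows for the 10 genes. A match was found in 10 of them, belonging to 7 genes (EZH2, EED, SUZ12, RBBP4, RBBP7, JARID2 and PHF19), and in 32% of all windows. The windows of EED and PHF19 lie wholly inside the GENCODE genes, and so do all their matches. Matches inside the gene were also found for RBBP4 and in a further RBBP7 window. The RBBP4 windows share 102 bases, and 1 match there is counted in both, so the 14 matches over the windows are 13 places in the genome. EZH2 has a further window downstream with 0 matches. A match is a description of the letters and not a binding site.

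Among the scaffold and reader subunits, EED (ENSG00000074266, chr11:86201212-86278813, + strand) had the largest log2 fold change of the 10. Its values were 1097, 1013 and 1076 in DMSO and 1073, 1285 and 1335 in Tan I. Tan I replicates 2 and 3 were above all DMSO libraries, and Tan I replicate 1 lay within the DMSO range. The means were 1062 ± 43.8 and 1231 ± 139 (SD, n = 3 each), so that EED differed by 0.21 on the log2 scale, with an interval of -0.08 to 0.50 (limma, unadjusted p = 0.138, adjusted p = 0.999). Leaving out Tan I replicate 1 brought EED to 0.30 with an unadjusted limma p of 0.0376 and an adjusted p of 0.532, and it was then the single PRC2 gene past the unadjusted threshold, where 8.86% of all genes were. An annotated long noncoding gene on the other strand shares 221 exon bases with EED, and no strand setting is given for the counting.

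SUZ12 (ENSG00000178691, chr17:31937007-32001038, + strand) had 2776, 2579 and 2818 normalized counts in DMSO and 2812, 3271 and 2846 in Tan I. The groups overlapped only in that DMSO replicate 3 was slightly above Tan I replicate 1. The log2 fold change was 0.13 with an interval of -0.14 to 0.39. SUZ12P1, an unprocessed pseudogene copy of part of SUZ12 on the same chromosome, is transcribed and was listed separately with 1976, 1957 and 1941 in DMSO and 1967, 2459 and 2322 in Tan I. Its log2 fold change of 0.19 (interval -0.09 to 0.47) was not called either. The authors removed reads mapping to several locations, so reads from identical stretches of the copies are in neither count, and the SUZ12 level is uncertain to that extent.

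RBBP4 (ENSG00000162521, chr1:32651142-32686211, + strand) and RBBP7 (ENSG00000102054, chrX:16839283-16870362, - strand) encode closely related WD-repeat proteins that also serve in the CAF-1, NuRD and SIN3 complexes. RBBP4 had 6790, 8059 and 7230 normalized counts in DMSO and 7468, 7541 and 8560 in Tan I. RBBP7 had 9090, 10295 and 9554 in DMSO and 9238, 10141 and 10861 in Tan I. Both were highest in Tan I replicate 3, followed by DMSO replicate 2 and Tan I replicate 2, and lowest in DMSO replicate 1. The log2 fold changes were 0.10 for RBBP4 (interval -0.19 to 0.38) and 0.06 for RBBP7 (interval -0.22 to 0.35). The sign for RBBP7 was negative with quantile normalization (-0.032). GENCODE release 44 lists 7 processed pseudogenes of RBBP4, of which 1 was in the table at a mean of 10.9 normalized counts, and exons of RBBP4 and RBBP7 share 2160 and 179 bases with genes on the opposite strand.

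PHF19 (ENSG00000119403, chr9:120855651-120894896, - strand) was the single PRC2 gene whose groups did not overlap. Its values were 1515, 1524 and 1638 in DMSO and 1712, 1820 and 1691 in Tan I, so the gap between the highest DMSO and the lowest Tan I library was small. The means were 1559 ± 68.4 and 1741 ± 69.2 (SD, n = 3 each), which put PHF19 at a log2 fold change of 0.16, with an interval of -0.08 to 0.40 (limma, unadjusted p = 0.162, adjusted p = 0.999). Over all genes tested, 7.89% had groups that did not overlap, 3.92% with Tan I higher, so 1 of 10 is close to that background. The log2 fold change of PHF19 stayed positive in all 19 alternatives, between 0.10 and 0.20.

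MTF2 (ENSG00000143033, chr1:93079235-93139079, + strand), another Polycomb-like protein, had 3765, 2638 and 3555 in DMSO and 3668, 3855 and 3293 in Tan I. DMSO replicate 2 stood well below the other 5 libraries. The log2 fold change was 0.13 with an interval of -0.24 to 0.51, and it was -0.024 without DMSO replicate 2.

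JARID2 (ENSG00000008083, chr6:15246069-15522042, + strand), a Jumonji family protein without demethylase activity, had 1851, 1472 and 1760 in DMSO and 1985, 1553 and 1287 in Tan I. Tan I held both the highest and the lowest value. Its log2 fold change of -0.09 (interval -0.51 to 0.33) was 0.058 without Tan I replicate 3. AEBP2 (ENSG00000139154, chr12:19404045-19720801, + strand), a zinc finger protein, had the smallest SD of log2 values over the 6 libraries among the 10 (0.060), with 1876, 1925 and 1756 in DMSO and 1882, 1748 and 1774 in Tan I. Its log2 fold change was -0.04 with an interval of -0.28 to 0.20.

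**Figure D2:**
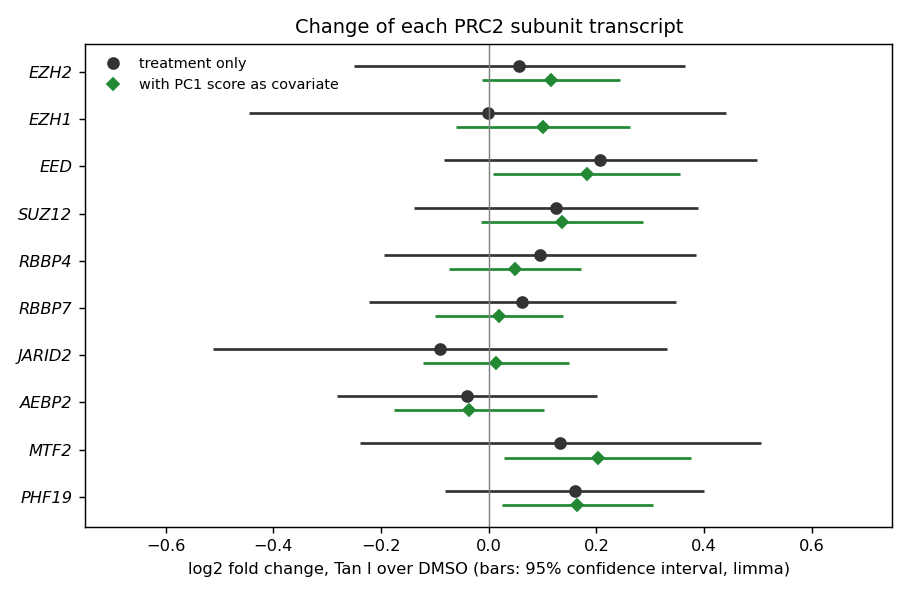
Log2 fold change of each PRC2 gene, Tan I over DMSO, from limma, with 95% confidence intervals as bars. Black circles are from the fit with treatment alone and green diamonds from the fit with the library score on the first principal component as a covariate. All 10 black intervals hold 0, and the green intervals of EED, MTF2 and PHF19 do not.

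As a group, 7 of the 10 genes had a higher mean log2 value in Tan I, where 49.7% of all genes tested did. The median log2 fold change was 0.08, against -0.0016 over all genes tested. Quantile normalization brought the median of the 10 to 0.0069, with 6 of 10 positive, so no direction is given for the group. Relative to the median of all genes the group stood at 0.080 in the fit on the deposited values and with equal totals. With quantile normalization it stood at 0.0094.

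The subunits differed in how much of their spread between libraries went with PC1 and with the treatment. The share was larger along PC1 in 6 and with treatment in 4. Each share is from a fit with that term alone, so the shares of a gene overlap and are not parts of a whole. Of the sum of squares between the 6 libraries, PC1 accounted for 97.1% in RBBP7, 96.7% in JARID2, 84.7% in RBBP4, 77.5% in EZH1, 68.5% in EZH2 and 37.9% in MTF2, where the median gene had 65.3%. These genes are among those from which the component was computed, and the shares are descriptions over 6 libraries. JARID2, EZH1, EZH2 and MTF2 were lower in libraries with a high score, while RBBP4 and RBBP7 were higher. In PHF19, EED, SUZ12 and AEBP2, treatment accounted for 72.8%, 50.2%, 37.7% and 13.3%, where the median gene had 9.56%. PC1 accounted for 1.16%, 25.2%, 0.188% and 3.54% in the same genes. In RBBP7, JARID2, RBBP4, EZH1, EZH2 and MTF2, treatment alone accounted for 11.66%, 4.609%, 19.65%, 0.0027%, 5.138% and 12.91%.

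**Figure D3:**
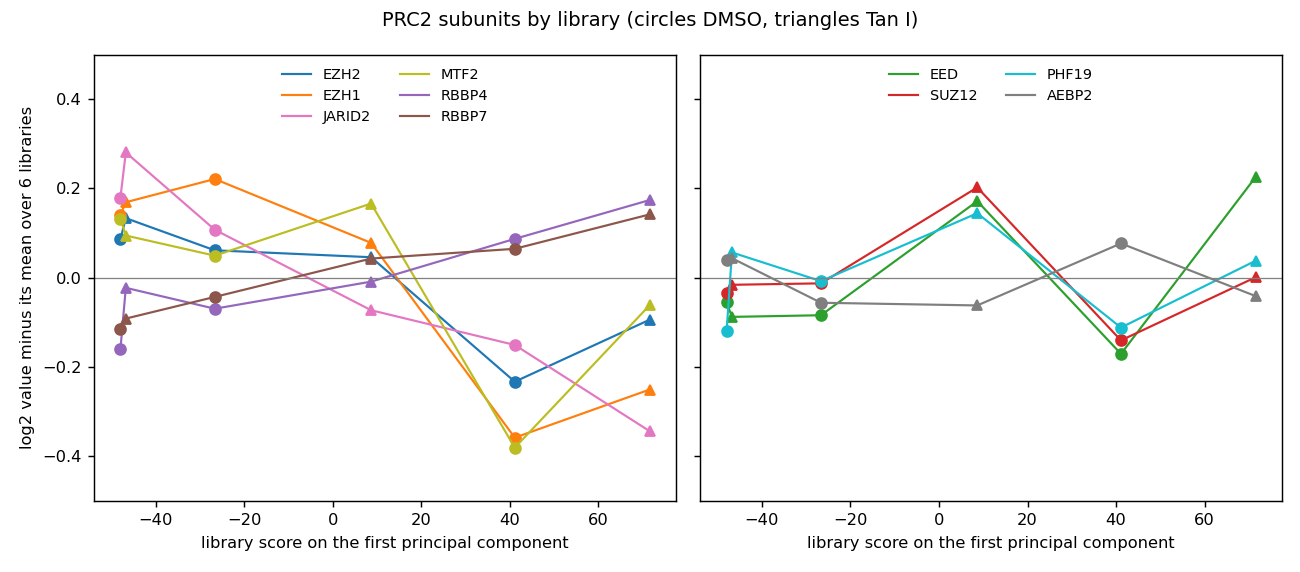
Log2 value of each PRC2 gene minus its mean over the 6 libraries, against the score of the library on the first principal component (circles DMSO, triangles Tan I). On the left, EZH2, EZH1, JARID2 and MTF2 are lower and RBBP4 and RBBP7 higher in the 2 libraries with the highest scores, and on the right EED, SUZ12, PHF19 and AEBP2 have less of their spread along the score.

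With the PC1 score as a covariate, the median width of the 10 intervals fell from 0.58 to 0.28 on the log2 scale. The score came from the same values and was taken as known, so the intervals and p-values of this fit may be too small. The log2 fold changes were then 0.20 for MTF2 (interval 0.03 to 0.38), 0.18 for EED (0.0080 to 0.36) and 0.16 for PHF19 (0.02 to 0.30), and 0.12 for EZH2 (-0.01 to 0.24). In this fit 3 of 10 PRC2 genes had an unadjusted limma p of at most 0.05 at any fold change, where 15.4% of all genes did, and 0 of 10 also reached a log2 fold change of 0.25. After adjustment over all genes 0 of 10 passed, where 1.15% of all genes did, and the smallest adjusted p of the 10 was 0.25, for PHF19. When the length and GC content of transcripts were corrected for, the log2 fold changes were 0.18 for EED, 0.19 for PHF19 and 0.05 for EZH2. Leaving out both DMSO replicate 2 and Tan I replicate 3 gave 0 calls among the 10.

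Levels were compared between genes as normalized counts per kilobase of the canonical transcript, or of the union of all annotated exons in GENCODE release 44. RBBP7 had the highest level on either scale, at 4229 ± 266 per kilobase of canonical transcript in DMSO (SD, n = 3). On that scale EZH2 followed with 1327 ± 157, then RBBP4 (934), MTF2 (815), EZH1 (671), SUZ12 (606) and EED (509), and PHF19 (376), AEBP2 (318) and JARID2 (282) were lowest. The DMSO ranges of RBBP4 and MTF2, of MTF2 and EZH1, of EZH1 and SUZ12 and of AEBP2 and JARID2 overlapped. The order depended on the gene model. Per kilobase of all exons EZH2 came sixth at 327 and EED last at 152, because their annotated exons together are much longer than the canonical transcript (10774 against 2654 bases for EZH2).

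Per kilobase of canonical transcript, EZH2 was 2.01 ± 0.203 times EZH1 in DMSO and 2.09 ± 0.162 times in Tan I (SD, n = 3 each). Per kilobase of all exons this ratio turned to 0.745 ± 0.0753 in DMSO and 0.775 ± 0.0604 in Tan I, with EZH1 at 445 and EZH2 at 327 in DMSO, so which of the pair is more abundant depends on the gene model. The summed level of MTF2 and PHF19 was 2.05, 1.76 and 2.13 times that of JARID2 and AEBP2 in DMSO, and 2.01, 2.48 and 2.34 times in Tan I. Tan I replicates 2 and 3 had the highest ratios and Tan I replicate 1 lay within the DMSO range. Per kilobase of all exons it was 1.46 ± 0.141 in DMSO and 1.68 ± 0.183 in Tan I. These ratios are given as descriptions.

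**Figure D4:**
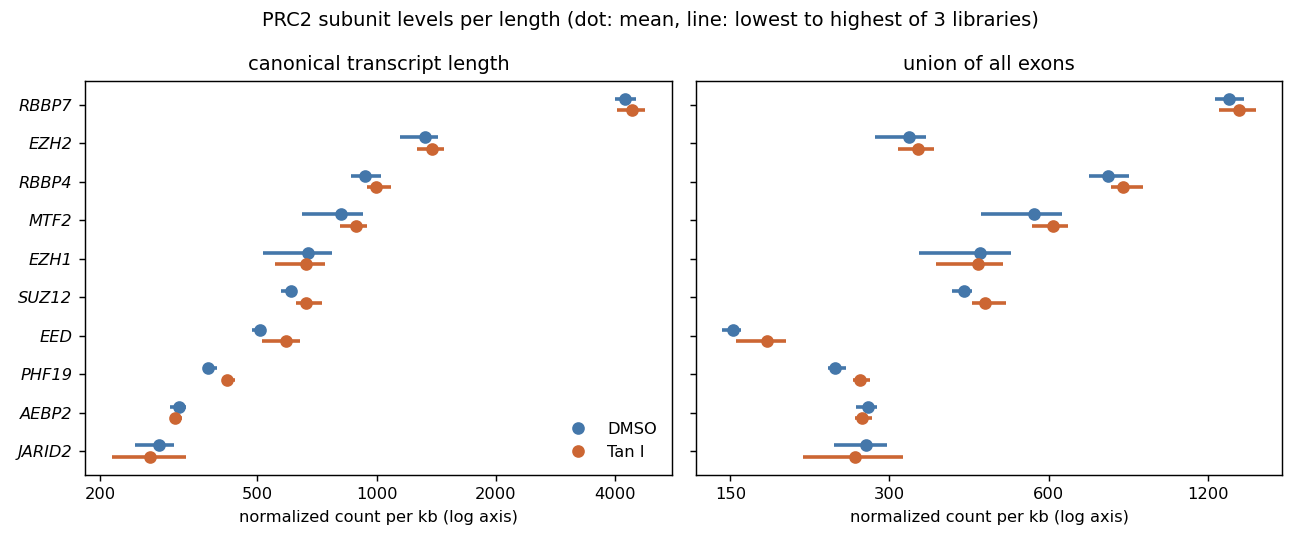
Levels of the 10 PRC2 genes as normalized counts per kilobase on a log axis, using the canonical transcript (left) or the union of all exons (right). Dots are group means and lines run from the lowest to the highest of 3 libraries, and RBBP7 is highest on both sides while EZH2 is second on the left and sixth on the right.

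Of 5 further PRC2 accessory proteins, PHF1, EPOP, LCOR and LCORL were measured and EZHIP was not analysed here. None of the 4 was called in either direction with treatment as the single term. LCORL, which shares 1634 exon bases with the opposite-strand gene NCAPG, had 2373, 1972 and 2329 normalized counts in DMSO and 2376, 2704 and 2623 in Tan I. Its log2 fold change was 0.21 (interval -0.07 to 0.49). The groups did not overlap, but the gap was only that between 2373 in DMSO replicate 1 and 2376 in Tan I replicate 1. LCORL was 1 of 4 without overlap and with Tan I higher, where 3.92% of all genes were. PHF1, the third Polycomb-like protein, had 2811, 2319 and 2735 in DMSO and 2665, 3322 and 3134 in Tan I, a log2 fold change of 0.21 (interval -0.10 to 0.53). EPOP, at 117 to 317 normalized counts, and LCOR, at 337 to 622, had log2 fold changes of -0.27 and -0.21 with intervals that held 0. With PC1 as a covariate EPOP was at -0.50 (interval -0.86 to -0.14) and was called lower without adjustment (limma, adjusted p = 0.172). It was the 1 of the 4 called, where 8.86% of all genes were. Its highest value, 317, was in DMSO replicate 2, while DMSO replicates 1 and 3 had 121 and 145. PHF1 and LCORL had p-values of 0.032 and 0.0143 in the fit with PC1 (limma, adjusted p = 0.273 and 0.204) at 0.21 and 0.22, below the fold threshold. An unadjusted p of at most 0.05 was thus found in 3 of the 4, where 15.4% of all genes had it. The H3K27 demethylases KDM6A and KDM6B, which act against PRC2, had log2 fold changes of 0.02 (interval -0.34 to 0.38) and -0.26 (interval -0.69 to 0.17).

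PRC1, the complex whose CBX proteins bind trimethylated H3K27, was represented by 20 subunits, and limma called 0 of them, or 3 without and 0 with adjustment when PC1 was a covariate, where 8.86% and 1.15% of all genes were called. The median log2 fold change was -0.09, with values from -0.44 for PCGF2 to 0.33 for PCGF1. The Tan I libraries lay below all DMSO libraries in 3 of the 20 (PCGF2, CBX2 and CBX6), where 3.97% of all genes did so. Of 18 partners of RBBP4 and RBBP7 in CAF-1, NuRD and SIN3, 0 were called, with log2 fold changes from -0.15 for CHD3 to 0.39 for CHD4. With PC1 as a covariate, 1 of these 18 was called without and 0 with adjustment, against the same shares of all genes. In that fit 6 of the 18 had an unadjusted p of at most 0.05 at any fold change, where 15.4% of all genes did. Of 15 proliferation genes, 2 were called higher without adjustment, CCNB1 at 0.38 (interval 0.10 to 0.67) and RRM2 at 0.45 (interval 0.04 to 0.86), and 0 lower, where 1.32% and 1.1% of all genes were called higher and lower. Both had an adjusted limma p of 0.999, and of 0.0351 and 0.0279 with PC1 as a covariate. The lowest value of that list was -0.23, for MCM2, and its median was 0.07.

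The genes whose log2 values, centred on their means, lay closest to those of EZH2 over the 6 libraries were ZFAND5, PCGF3 and TAP1 among 11089 genes with a mean of at least 100. Their root mean square differences from EZH2 were 0.0134, 0.0158 and 0.0175 on the log2 scale. Their own log2 fold changes were 0.06, 0.06 and 0.04.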

How the data were processed

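RNA-seq reads of 6 NB4 libraries were aligned by the authors to GRCh38 with STAR, multi-mapping reads were removed, and the rest were counted per gene with featureCounts. Versions, annotation and strand setting are not given in the sources used here. The authors deposited signal values, read counts divided by a size factor per library, and columns of their own DESeq2 comparison. Those columns, which the authors deposited as a log2 fold change with its standard error, a Wald score, p-values and a mean, were not used. All values (100%, tolerance 0.001) were whole multiples of the worth of 1 read in their library, which gave the reads. Groups and replicate numbers came from the sample titles.

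Log2(normalized count + 1) of the 16887 genes averaging 10 or more was fitted with limma 3.58.1 in R 4.3.3 (eBayes with trend), with treatment as the single term, Benjamini-Hochberg adjustment over these genes and 95% intervals. This scale understates the change of low genes. Alternatives were pseudocounts of 0.1 and 10, no filter, a mean of at least 50, quantile normalization, equal totals, no trend, edgeR 4.0.16 and DESeq2 1.42.0 on the reads, a replicate block, PC1 as a covariate and each library left out. A length and GC correction (splines with 5 degrees of freedom) and leaving out both DMSO replicate 2 and Tan I replicate 3 were added after seeing the data. The fits were run on simulated reads whose changes were larger than those of the 10 genes, so that run does not show how well changes of their size are found. Gene models were from GENCODE release 44, which held 99.6% of the identifiers, and upstream windows of 250 bases were from RefSeq (GRCh38.p14). The 10 genes and the lists were chosen with earlier results of these data known. The genes named were the 10, the other accessory proteins, the demethylases, the highest, the lowest and any called gene of each further list, and the 3 genes nearest to EZH2. CBX2 and CBX6, SUZ12P1 and the lineage markers were named in addition, CBX2, CBX6 and SUZ12P1 after their values were seen. Some markers of other blood lineages are not reported here.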

Additional observations from a re-analysis of the deposited data

How the results depend on the processing

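For the 10 PRC2 genes, 178 of 190 values under 19 alternatives kept their direction, and 0 passed an adjusted p of 0.05 (the smallest was 0.25). Outside leaving out libraries, the sign turned for EZH2 with equal totals (-0.0027, where all genes shifted to a median of -0.06), for EZH1 with PC1 as a covariate (0.10) and after length and GC correction (0.059), for RBBP7 with quantile normalization (-0.032), for JARID2 with PC1 (0.014) and for AEBP2 after length and GC correction (0.0023). With single libraries left out, log2 fold changes ran from -0.046 to 0.12 for EZH2, -0.18 to 0.12 for EZH1, -0.25 to 0.058 for JARID2, -0.024 to 0.23 for MTF2, 0.055 to 0.16 for SUZ12, 0.032 to 0.16 for RBBP4, 0.0067 to 0.12 for RBBP7 and 0.037 to 0.12 for the median of the 10, and the EZH2 to EZH1 difference from -0.0060 to 0.14. The count of PRC2 genes called then ran from 0 to 1, and that of all genes called without adjustment from 160 (without Tan I replicate 2) to 1496 (without Tan I replicate 1), with 180 without DMSO replicate 1, 201 without DMSO replicate 3 and 271 without Tan I replicate 3. PC1 as a covariate gave 1496 genes without and 195 with adjustment, DESeq2 gave 16 with adjustment (no adjusted p for 3602 genes), and leaving out DMSO replicate 2 and Tan I replicate 3 together gave 2. The median of the 10 was 0.0069 with quantile normalization. The causes were not tested. With the replicate number as a block, limma called 348 genes and 0 of the 10. The correlations of same-numbered libraries about their group means were 0.75, -0.09 and -0.45, and that of DMSO replicate 2 with Tan I replicate 3 was 0.76. Deviations along PC1 enter these correlations, so they cannot decide whether the numbers pair the libraries, and the labels do not say. The intervals of the 10 genes reached from 0.606-fold to 1.58-fold over these fits, where edgeR and DESeq2 gave no intervals. Of the intervals, 15 passed 1.5-fold in either direction, so a change of that size is not outside every interval.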
